A study of Homo sapiens with 11 samples.

Results

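The regions described here are CUT&RUN peaks whose summit, the position of strongest signal, lay within 1000 bp of an end of exactly 1 protein-coding gene. CUT&RUN releases the DNA around an antibody's target inside permeabilised cells and sequences it. Positions are on hg38, counted from 1. Chromosomes 1 to 18, 20 to 22 and X were used without the acrocentric short arms, so chromosome 19 is not analysed here. On these chromosomes 786 of the 4107 regions in 5 deposited peak lists met the rule. They were 464 of 1735 regions in edit_myc_FLAG, 142 of 942 in myc_FLAG, 171 of 1003 in endog_myc, 2 of 215 in mouse IgG (ms_IgG) and 7 of 212 in rabbit IgG (rbt_IgG). The target regions marked 571 different genes, and 1 gene held a pair of such regions in 1 list, PPP4R3A in edit_myc_FLAG. Of 18523 protein-coding genes, 2.5% had such a region in edit_myc_FLAG, 0.767% in myc_FLAG, 0.923% in endog_myc, 0.0108% in mouse IgG and 0.0378% in rabbit IgG.

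All 11 libraries came from HEK293T, a human embryonic kidney line. A mouse antibody to the FLAG tag, a rabbit antibody to myc and IgG of both species were used; the labels do not tie an antibody to each library, but the names edit_myc_FLAG, myc_FLAG and endog_myc point to FLAG, FLAG and myc. Each of these groups had 3 libraries, and mouse IgG and rabbit IgG, which bind no chosen target, had 1 library each. The labels give no treatment and no time, and they do not explain "edit" or how the tagged protein was introduced, nor do they say whether replicates were separate cultures. Each target list stands for its 3 libraries, so nothing in it measures the spread between replicates, and read depth is unknown. Peak lists hold no expression values, so the identity of the cells was not checked. Tests treat regions as units. Neighbouring regions are not fully independent, which makes p-values too small, and intervals cover counting error only.

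MYC is a transcription factor that pairs with MAX through a helix-loop-helix leucine zipper and is known for binding the E-box, a short palindrome, at promoters of growth genes. Promoters also carry other common elements. The CCAAT box is known as the binding site of NF-Y, a factor of NF-YA, NF-YB and NF-YC, and usually lies shortly upstream of the start. The GC box is bound by the SP family.

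The promoters of genes that had a region in every target list but in neither IgG list are shown first, as examples of the motifs counted further on. They are the first 6 in the order of fold whose summit fell inside the promoter window in at least 2 target lists. Each window runs from 250 bases before to 50 bases after a RefSeq start on GRCh38.p14 and is written 5′ to 3′ on the strand of the gene. Capitals mark the CCAAT box in either direction (CCAAT or ATTGG) and the E-box CACGTG.
HNRNPC (chr14:21269393-21269692, - strand): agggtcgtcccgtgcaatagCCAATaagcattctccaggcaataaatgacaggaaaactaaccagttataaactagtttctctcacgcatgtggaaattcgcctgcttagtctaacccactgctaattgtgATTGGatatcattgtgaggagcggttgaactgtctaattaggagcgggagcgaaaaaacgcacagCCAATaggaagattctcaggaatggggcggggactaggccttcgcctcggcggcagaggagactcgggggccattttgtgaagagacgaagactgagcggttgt
OSBP (chr11:59615725-59616024, - strand): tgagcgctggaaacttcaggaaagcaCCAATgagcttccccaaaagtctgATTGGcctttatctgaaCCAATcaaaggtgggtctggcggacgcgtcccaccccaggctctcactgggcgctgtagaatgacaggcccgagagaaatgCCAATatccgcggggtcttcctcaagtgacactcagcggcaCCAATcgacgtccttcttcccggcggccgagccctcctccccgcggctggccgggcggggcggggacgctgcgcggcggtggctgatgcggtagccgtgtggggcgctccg
DOLPP1 (chr9:129080861-129081160, + strand): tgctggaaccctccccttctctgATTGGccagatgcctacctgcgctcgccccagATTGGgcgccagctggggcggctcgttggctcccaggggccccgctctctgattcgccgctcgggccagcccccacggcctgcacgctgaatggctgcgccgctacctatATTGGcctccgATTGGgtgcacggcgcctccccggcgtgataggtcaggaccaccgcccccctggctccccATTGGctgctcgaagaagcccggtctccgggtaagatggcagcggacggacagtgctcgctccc
TOP2A (chr17:40417847-40418146, - strand): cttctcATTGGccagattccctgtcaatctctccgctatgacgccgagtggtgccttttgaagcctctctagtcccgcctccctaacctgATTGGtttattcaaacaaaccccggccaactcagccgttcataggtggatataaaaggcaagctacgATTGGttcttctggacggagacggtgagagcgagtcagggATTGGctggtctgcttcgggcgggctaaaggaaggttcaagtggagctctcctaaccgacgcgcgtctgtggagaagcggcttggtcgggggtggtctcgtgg
TIAM1 (chr21:31559038-31559337, - strand): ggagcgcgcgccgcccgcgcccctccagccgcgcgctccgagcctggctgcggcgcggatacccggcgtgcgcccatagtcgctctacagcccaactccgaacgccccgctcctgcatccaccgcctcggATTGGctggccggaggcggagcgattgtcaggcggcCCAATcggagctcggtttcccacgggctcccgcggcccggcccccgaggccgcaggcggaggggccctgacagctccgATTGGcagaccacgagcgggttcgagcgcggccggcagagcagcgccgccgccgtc
KDM4A (chr1:43649899-43650198, + strand): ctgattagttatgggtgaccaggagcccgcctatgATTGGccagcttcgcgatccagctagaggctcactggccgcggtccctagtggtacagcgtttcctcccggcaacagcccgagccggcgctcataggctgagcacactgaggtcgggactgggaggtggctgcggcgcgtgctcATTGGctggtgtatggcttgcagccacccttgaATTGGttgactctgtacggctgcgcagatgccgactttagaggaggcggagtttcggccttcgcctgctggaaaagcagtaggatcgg
Every one of the 6 windows held CCAAT at least 3 times, and none held CACGTG. The 6 are not typical of all such genes: among the other named genes with a window, P4HB and CAMTA1 held 3 matches, IFT27 held 2, LOC124903130, ADI1 and MTRFR held 1, and USP16, STIP1 and LIAT1 held 0, although all 3 LIAT1 summits lay in its window. HNRNPC had 3 matches, OSBP 5, DOLPP1 5, TOP2A 4, TIAM1 3 and KDM4A 3. In HNRNPC, which binds pre-mRNA, matches were centred 228, 117 and 52 bases upstream of the start, and the summits lay 121, 199 and 190 bases upstream in edit_myc_FLAG, myc_FLAG and endog_myc. In TOP2A, the topoisomerase that untangles replicated DNA, matches were centred 242, 158, 91 and 51 bases upstream and the summits lay 102, 65 and 95 bases upstream in the same order of lists.

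The summits lay at gene starts, although the rule accepts either end of a gene. The strand of the gene was known for 391 of 464 regions in edit_myc_FLAG, and 381 of them were nearer to the start (97.4%, 95% Wilson interval 95.4 to 98.6). In myc_FLAG 120 of 122 were (98.4%, 94.2 to 99.5), and in endog_myc 148 of 148 (100%, 97.5 to 100). An exact two-sided binomial test against an even split gave adjusted p-values of 2.50e-98, 2.82e-33 and 8.41e-45 over the 3 lists. The 2 exceptions in myc_FLAG were at PLCE1, a phospholipase, and ASAP2, a regulator of Arf GTPases; they are named after their values were seen. The ASAP2 region also appeared in edit_myc_FLAG, with a fold of 5.59 in edit_myc_FLAG and 6.94 in myc_FLAG. Of the 2 mouse IgG regions, 1 was nearer to a start, and so were all 5 rabbit IgG regions of known strand.

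Summits clustered around the start, and in each list more lay upstream of it than downstream, by a margin that was not tested. With upstream counted below 0, the median position from the start was -31 bp (edit_myc_FLAG), -82.5 bp (myc_FLAG) and -91.5 bp (endog_myc). Within 250 bp of the start lay 71.9%, 70% and 69.6% of the start-side regions in the same order, and 54.9%, 57.5% and 64.9% lay upstream. Where 2 lists had a region at the same gene, the summits lay close together. The median distance between them was 59.5 bp over 92 genes in edit_myc_FLAG and myc_FLAG, 61 bp over 103 genes in edit_myc_FLAG and endog_myc, and 62 bp over 67 genes in myc_FLAG and endog_myc. The positions of summits from the gene start are plotted by list.

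**Figure D1:**
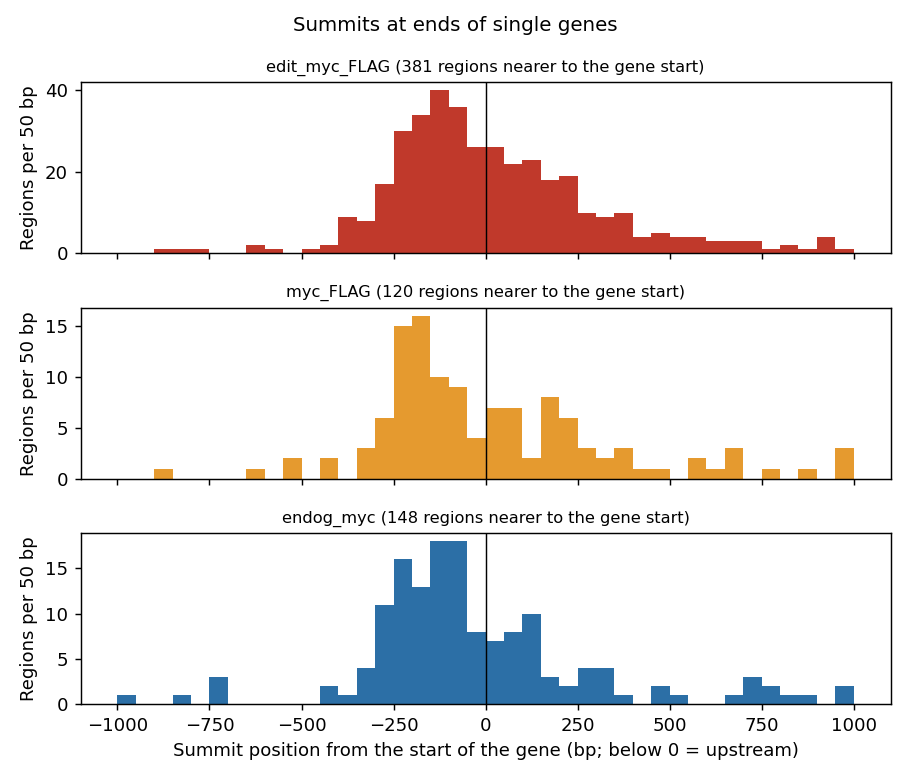
Number of regions per 50 bp by summit position from the start of the gene, in bp with upstream below 0, for the 381 edit_myc_FLAG, 120 myc_FLAG and 148 endog_myc regions nearer to a start. Each list peaks within 250 bp of the start, on its upstream side.

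Regions at single gene ends had narrower medians and lower maxima than the other regions of their lists. Their median width was 226.5 bp (edit_myc_FLAG), 257.5 bp (myc_FLAG) and 282 bp (endog_myc), against 255, 294.5 and 311.5 bp in the other regions. The median fold, the enrichment given by the authors for each peak, was 5.43 in edit_myc_FLAG (range 3.09 to 13.003), against 5.31 in its other regions. It was 5.62 in myc_FLAG (2.90 to 10.7), against 5.43, and 5.59 in endog_myc (3.21 to 11.1), against 5.35. The other regions reached far higher, with highest folds of 40.8, 44.2 and 37.6. Of the single-end regions of edit_myc_FLAG, 30.4% had a −log10 q of 5 or more, against 50.3% of its other regions. The shares were 43.0% against 70.5% in myc_FLAG and 45.0% against 68.4% in endog_myc. Fold values were not tested.

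Single gene ends were more frequent in the target lists than in IgG. They made up 26.7% of edit_myc_FLAG regions (24.7 to 28.9). The share was 15.1% for myc_FLAG (12.9 to 17.5) and 17.0% for endog_myc (14.8 to 19.5). It was 0.930% in mouse IgG (0.255 to 3.33) and 3.30% in rabbit IgG (1.61 to 6.66). The 6 pairs of a target list and an IgG list had adjusted p-values from 2.15e-23 to 4.03e-07 in two-sided Fisher's exact tests over 9 pairs. The edit_myc_FLAG share was 11.7 percentage points above myc_FLAG by Fisher's exact test, with an adjusted p of 4.37e-12. Against endog_myc it was 9.69 points higher, with an adjusted p of 7.63e-09 in the same exact test. From endog_myc, myc_FLAG differed by -1.97 points (interval -5.23 to 1.30), with an adjusted p of 0.241 in the same exact test. The lists differ in length: with the 212 highest-fold regions of each list, the first of these differences was 3.77 points, the second 0 points, and that of myc_FLAG over rabbit IgG 3.77 points. The adjusted p-values were then 0.263, 1 and 0.185 in the exact test, and the other 5 target-over-IgG differences stayed past the threshold. The contrast with IgG was not particular to single gene ends, because ends of 2 or more genes were scarce in IgG too. Mouse IgG held 1 such region among its 215, and rabbit IgG held 4 among 212. The target lists held 137 (edit_myc_FLAG, 1735 regions), 52 (myc_FLAG, 942 regions) and 55 (endog_myc, 1003 regions). This contrast was not tested.

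Few single-end regions recurred in the IgG lists. In edit_myc_FLAG 5 of 464 overlapped an IgG region (1.08%), against 19.04% of its other regions; over the whole list the share was 14.2%. In myc_FLAG the numbers were 4 of 142 (2.82%), against 30.9% of other regions and 26.6% of the whole list. In endog_myc they were 3 of 171 (1.75%), against 29.6% and 24.8%. The IgG lists held only 2 (mouse) and 7 (rabbit) single-end regions, which limited how many could overlap. The other regions include ends of 2 or more genes, of which the IgG lists held only 1 (mouse) and 4 (rabbit). Fisher's exact test gave adjusted p-values of 1.90e-28, 9.33e-16 and 4.46e-19 over the 3 lists. This test is therefore not separate from the low share of single gene ends in IgG. The overlapping regions lay at AGPAT5, EIF5A and SP2 in all 3 target lists, at MEAK7 and MTOR in edit_myc_FLAG, and at FER in myc_FLAG. Each overlapped rabbit IgG. Of the rabbit IgG genes, only HYI had no single-end region in a target list.

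SP2, a member of the SP family, had a fold of 9.13 (edit_myc_FLAG), 8.44 (myc_FLAG) and 11.1 (endog_myc), and 5.59 in rabbit IgG. AGPAT5, an acyltransferase of phospholipid synthesis, had 10.03, 9.02 and 8.57, and 5.77 in rabbit IgG. MTOR, the growth-regulating kinase, had 6.03 in edit_myc_FLAG and 4.39 in rabbit IgG. MEAK7, an activator of MTOR signalling, had 5.99 and 5.16, and FER, a tyrosine kinase, had 7.79 in myc_FLAG and 5.86 in rabbit IgG. HYI was the remaining rabbit IgG gene, with a fold of 5.27. The mouse IgG genes were FGGY, a carbohydrate kinase (7.26), and CNIH4, a cargo receptor of the early secretory pathway (8.19), and neither had a single-end region in a target list. Values of different lists stand side by side here and were not compared.

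Sharing among the target lists was counted as an overlap of at least 1 bp. Of the single-end regions of myc_FLAG, 93 of 142 overlapped edit_myc_FLAG (65.5%, 57.4 to 72.8), where 61.6% of the whole list did. Of the same regions 70 overlapped endog_myc (49.3%, 41.2 to 57.4), where 60.8% of the whole list did. Of the endog_myc single-end regions 103 of 171 overlapped edit_myc_FLAG (60.2%, 52.8 to 67.3; whole list 59.5%), and 68 overlapped myc_FLAG (39.8%, 32.7 to 47.2; whole list 56.6%). The longer edit_myc_FLAG list shared 92 of 464 with myc_FLAG (19.8%, 16.5 to 23.7; whole list 33.8%) and 102 with endog_myc (21.98%, 18.5 to 26.0; whole list 35.2%).

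More endog_myc single-end regions were found in edit_myc_FLAG than in myc_FLAG. There were 46 in edit_myc_FLAG alone, against 11 in myc_FLAG alone, a difference of 20.5 percentage points (exact two-sided McNemar test, p = 3.31e-06). With the 942 highest-fold regions of each target list the difference was 9.41 points (exact test, p = 0.0402). At that equal length edit_myc_FLAG still held 268 single-end regions, against 142 in myc_FLAG. The part of the difference that goes with these unequal numbers was not tested.

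Compared with regions at ends of 2 or more genes, no difference in sharing passed the test. The 6 differences ran from -4.26 to 5.07 percentage points, and the adjusted p was 1 for each in Fisher's exact test. Their 95% Newcombe intervals were wide, as only 137, 52 and 55 such regions were in the 3 lists. For myc_FLAG in edit_myc_FLAG the shares were 65.5% and 65.4%, with an interval of the difference from -13.9 to 15.5 points.

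Compared with regions away from gene ends, single-end regions were shared less often for 4 of 6 ordered pairs. For edit_myc_FLAG the share in myc_FLAG was 19.8%, against 40.7% away from gene ends (exact test, adjusted p = 2.87e-15), and in endog_myc 21.98%, against 41.9% (exact test, adjusted p = 4.88e-14). For myc_FLAG in endog_myc it was 49.3%, against 64.2% (exact test, adjusted p = 0.00145), and for endog_myc in myc_FLAG 39.8%, against 61.4% (exact test, adjusted p = 7.37e-07). Regions that overlap IgG moved these values. Without them the 4 differences were -5.72, -4.66, 0.207 and -6.36 points, with adjusted p-values of 0.0413, 0.0936, 1 and 0.185 in exact tests. For the other pairs, myc_FLAG and endog_myc regions in edit_myc_FLAG, single-end regions were then shared more often, by 20.2 points (exact test, adjusted p = 0.000192) and 15.6 points (exact test, adjusted p = 0.00160). Before that step these 2 differences were 4.93 and 0.774 points (exact tests, adjusted p = 0.362 and 0.864).

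**Figure D2:**
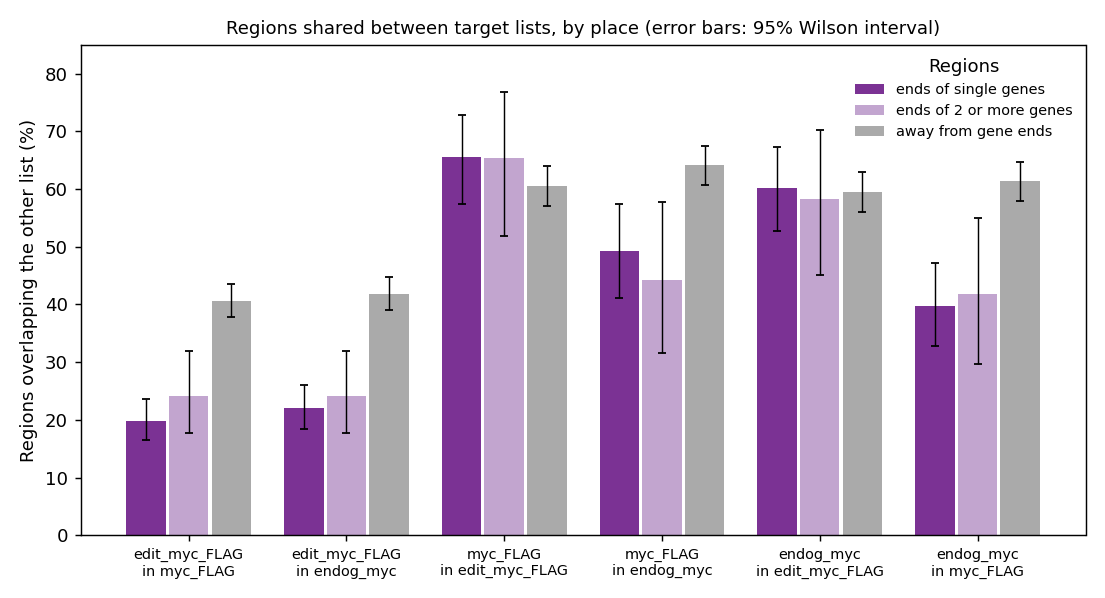
Share of regions in % that overlap another target list, for regions at ends of single genes, at ends of 2 or more genes and away from gene ends, by ordered pair of lists; error bars are 95% Wilson intervals. Single gene ends differ little from ends of 2 or more genes, and in 4 of 6 pairs they lie below regions away from gene ends, for example 39.8% against 61.4% for endog_myc in myc_FLAG.

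By gene, 57 of 18523 protein-coding genes had a single-end region in all 3 target lists (0.308%) and 148 in at least 2 (0.799%). A further 325 genes were in edit_myc_FLAG alone, 40 in myc_FLAG alone and 58 in endog_myc alone. The lists are not equally long, and absence from a list is no measured loss. The 92 genes in both FLAG lists were 19.9% of the edit_myc_FLAG genes and 64.8% of the myc_FLAG genes. The 103 in edit_myc_FLAG and endog_myc were 22.2% and 60.2%, and the 67 in myc_FLAG and endog_myc were 47.2% and 39.2%.

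Of the 57 genes, 54 had no IgG region, and the 16 with the highest fold, ranked within each list, were named. They are described by role. In the endoplasmic reticulum, P4HB, a protein disulfide isomerase, had summits 289, 286 and 266 bp upstream of its start in edit_myc_FLAG, myc_FLAG and endog_myc. DOLPP1, which recycles the lipid carrier of N-glycosylation, had folds of 8.45, 6.34 and 7.68 in the same order. STIP1 and HNRNPC are not part of the endoplasmic reticulum group. STIP1, a co-chaperone that links heat shock chaperones, had folds of 6.56, 6.85 and 7.09 with summits 475 to 520 bp inside the gene. HNRNPC, whose sequence is above, had folds of 7.20, 9.19 and 8.49.

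Among nuclear proteins, TOP2A had a fold of 6.54 (edit_myc_FLAG), 8.43 (myc_FLAG) and 6.68 (endog_myc). KDM4A, a histone lysine demethylase, had 8.78, 6.78 and 6.30, with the edit_myc_FLAG summit 9 bp inside its start. USP16, a histone H2A deubiquitinase, had 7.98, 7.88 and 7.15. CAMTA1, a calmodulin-binding transcription activator, had its summits 299, 276 and 224 bp upstream, and the non-coding CAMTA1-DT had an end within 1000 bp of them.

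TIAM1, an activator of the GTPase Rac, had a fold of 10.1 (edit_myc_FLAG), 6.69 (myc_FLAG) and 6.36 (endog_myc). IFT27, a GTPase of intraflagellar transport, had 9.69, 5.60 and 8.37, so its myc_FLAG value was near that list's median of 5.62. LIAT1 had 10.5, 7.49 and 5.72. In metabolism, OGDH, a subunit of the oxoglutarate dehydrogenase of the citric acid cycle, had 7.59, 6.09 and 7.64. ADI1 (methionine salvage) had summits 453, 399 and 498 bp inside its start. OSBP, an oxysterol-binding protein, had summits 298, 183 and 205 bp upstream. MTRFR, a mitochondrial translation release factor, had summits 111, 97 and 339 bp inside. LOC124903130 stood apart in its promoter window, with a GC content of 32.0%, and its summits lay 704 to 757 bp inside its start.

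**Figure D3:**
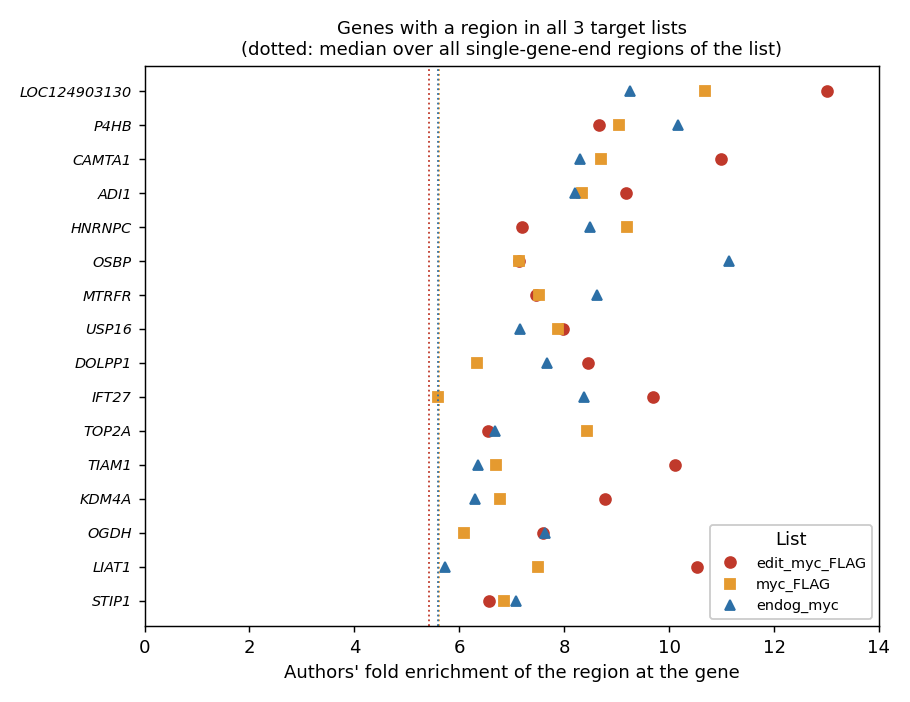
The authors' fold of the region at each of the 16 named genes, by target list; dotted lines mark the median over all single-end regions of each list. All values lie above the lists' medians of 5.43, 5.62 and 5.59 except IFT27 in myc_FLAG, at 5.60.

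Genes whose region overlapped no other list were ranked by fold. In edit_myc_FLAG they were led by LOC124905351 (10.02), SH3BGRL2 (8.48), FAM86B2 (8.16), TULP3, a factor of transport into cilia (7.68), PPP2R5A, a subunit of protein phosphatase 2A (7.66), and SLC2A8, a glucose transporter (7.62). The annotated span of LOC124905351 begins at base 2689 of chromosome 3, close to the chromosome's tip, so its placement is uncertain. In myc_FLAG they were CHCHD6, a protein of mitochondrial cristae (7.24), HSP90B1, a chaperone of the endoplasmic reticulum (7.01), CCNF, a cyclin with an F-box (6.84), SOCS5, a suppressor of cytokine signalling (6.66), COPS7A, a subunit of the COP9 signalosome (6.60), and FARP2 (6.28). In endog_myc they were SPRYD3 (8.72), GSK3B, a serine/threonine kinase (7.74), PABPN1, the nuclear poly(A)-binding protein (7.38), FAM76A (6.71), PGRMC2, a heme-binding membrane protein (6.49), and RAD51B, a recombination factor (6.49).

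Genes in exactly 2 target lists were named by the same ranking. In edit_myc_FLAG and myc_FLAG were NAP1L4, a nucleosome assembly protein (7.25 and 7.01), AP3M2, an adaptor subunit (6.79 and 6.94), and BPGM, which makes bisphosphoglycerate (7.56 and 6.38). In edit_myc_FLAG and endog_myc were HMGN1, a nucleosome-binding protein (7.84 and 7.84), KANSL1, a subunit of an acetyltransferase complex (6.84 and 7.93), and CREB3L2, a transcription factor anchored in the endoplasmic reticulum (8.19 and 6.33). In myc_FLAG and endog_myc were TOM1, a factor of endosomal sorting (9.98 and 5.56), ZNF678 (7.75 and 5.81) and RBX1, the RING subunit of cullin ubiquitin ligases (6.66 and 5.99). The BPGM summits lay 168 and 173 bp upstream of the start, and the HMGN1 summits 301 and 312 bp upstream.

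Gene groups were counted beside all genes, of which 3.08% had a single-end region in any target list (2.5% for edit_myc_FLAG, 0.767% for myc_FLAG, 0.923% for endog_myc). The groups were chosen with earlier results of these data known, so a higher share in a group is a description and no separate evidence. Chaperones and folding enzymes had 6 of 38 genes in any target list. They were P4HB, HSPA1B, HSPA5, HSPA8, HSP90B1 and PDIA4, a disulfide isomerase with a fold of 4.90 in endog_myc. HSPA5, the chaperone of the endoplasmic reticulum known as BiP, had 7.17 in edit_myc_FLAG and 5.403 in myc_FLAG. HSPA1B, an inducible heat shock protein with a near-identical copy in HSPA1A, had 4.85, 7.78 and 8.40 in the 3 lists, so its reads may be split. Splicing and mRNA processing had 7 of 85: HNRNPA0, HNRNPC and SF1 in all 3 lists, HNRNPR in edit_myc_FLAG (6.70) and endog_myc (6.21), SNRPF (5.31) and SRSF4 (5.55) in edit_myc_FLAG, and PABPN1. HNRNPA0 had a fold of 10.2 (edit_myc_FLAG), 5.63 (myc_FLAG) and 5.99 (endog_myc). SF1, which recognises the branch point, had 6.21, 5.71 and 5.75. Nucleotide, folate and polyamine synthesis had 4 of 35, of which RRM2B, a ribonucleotide reductase subunit, was in endog_myc (4.68).

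Chromatin and Mediator genes had 8 of 89. EZH2, the Polycomb methyltransferase (5.42), HDAC1, a histone deacetylase (5.49), KDM2A, a demethylase (6.48), and SMARCD1, a subunit of SWI/SNF (4.46), were in edit_myc_FLAG. HDAC4 was in edit_myc_FLAG (7.47) and myc_FLAG (4.04), BRD2, a bromodomain protein (4.79), and MED24, a Mediator subunit (4.87), in myc_FLAG, and KDM4A in all 3. Ubiquitin and proteasome genes had 6 of 76, among them UBB, a ubiquitin gene (5.45), and PSMA5, a proteasome subunit (5.07), both in myc_FLAG. Endosome, lysosome and vesicle genes had 5 of 89, among them STX7, an endosomal syntaxin (6.97), and NPC1, a lysosomal cholesterol transporter (5.66), in edit_myc_FLAG. DNA repair had 3 of 68: RAD51B, OGG1, a glycosylase for oxidised guanine (3.99 in edit_myc_FLAG), and UNG, the uracil glycosylase (4.72 in edit_myc_FLAG and 5.67 in endog_myc).

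In edit_myc_FLAG the groups tied to MYC had shares of 5.26% (3 of 57 MYC target genes), 4.41% (3 of 68 ribosome biogenesis genes) and 15.4% (2 of 13 MAX network genes), beside 2.5% of all genes. Of the MYC target genes, myc_FLAG held 0, which allows a share of up to 5.26%, and endog_myc held 1. The MYC targets were NOP56, RABEPK and UNG, and those of the MAX network were MXD1 (5.97) and MXD3 (4.50), partners of MAX that repress transcription. NOP56 was counted among the ribosome biogenesis genes as well, so the share of that group and the share of MYC targets are not independent. The MAX network had 0 in myc_FLAG and endog_myc, which allows up to 23.1%, and so did ribosome biogenesis, which allows up to 4.41%. A list of 52 cell cycle genes, mainly cyclins, their kinases, E2F and MCM genes, had 0 in each list, which allows up to 5.77%. The 0 holds only for the members of that list, as other cyclin and E2F family genes did have regions. E2F7 (5.81), CCNT2 (5.07), CCNK (4.96) and CCNG2 (4.55) had them in edit_myc_FLAG, and CCNF, named above, in myc_FLAG (6.84). Except for CCNF, these genes and the 3 that follow, which have cell cycle roles, are named after their values were seen. CKS2, a partner of cyclin-dependent kinases, had folds of 6.53, 5.99 and 6.44 in edit_myc_FLAG, myc_FLAG and endog_myc. FBXO5, an inhibitor of the anaphase-promoting complex, had 5.05, 5.05 and 4.96, and GMNN, the replication licensing inhibitor geminin, had 4.74 in edit_myc_FLAG and 5.096 in myc_FLAG. Glycolysis had 0 of 19, which allows up to 15.8%. Translation factors had 3 of 39, mitochondrial ribosome and translation 2 of 82, and zinc finger genes 8 of 304. Olfactory receptors had 0 of 372, which allows up to 0.806%, and liver, muscle and neuron genes had 0 of 20, 0 of 17 and 0 of 24, which allow up to 15%, 17.6% and 12.5%. The lists differ in size and only these counts are given, with no test.

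The E-box was in about the same share of these promoter windows as of other promoter windows. Promoter windows were at hand for 478 of the 571 genes, 1 window per gene at its outermost start, and for 14149 genes with no single-end region in a target list. Both strands were searched. Of the summits at genes of known strand, 52.4% lay inside the window in edit_myc_FLAG, 50.8% in myc_FLAG and 56.8% in endog_myc. The sequence at the other summits was not searched for any motif, so the shares describe windows and not peaks. CACGTG was in 9.74% of the windows of edit_myc_FLAG genes (38 of 390, 7.18 to 13.1), 9.02% of myc_FLAG (11 of 122, 5.11 to 15.4) and 8.78% of endog_myc (13 of 148, 5.21 to 14.4), against 8.90% of the other genes (8.44 to 9.38). Over all 14627 windows the share was 8.92%. A window without the match shows only that these letters are not in it.

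The CCAAT box was in most of these windows. CCAAT or its reverse complement was in 65.1% of edit_myc_FLAG windows (254 of 390, 60.3 to 69.7), 77.0% of myc_FLAG (94 of 122, 68.8 to 83.6) and 72.3% of endog_myc (107 of 148, 64.6 to 78.9). Among the genes with no such region it was in 35.0% (34.2 to 35.8), and over all windows in 36.0%. A pair or more of matches was in 40%, 56.6% and 47.3% of the windows of the 3 lists, against 11.2% of the other genes. Over genes of any target list the share was 65.7%, and for genes at ends of 2 or more genes, with none of the single-end regions, it was 65.2% (197 of 302). These shares are descriptions and were not tested, and a match is not a site of binding.

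The CCAAT share was also taken within bands of base composition. The windows were richer in G and C, with a median of 67.3% in genes of any target list, against 62.3% in the others. Within windows of 60 to 70% GC, CCAAT was in 76.4% of the 199 windows of target genes (70.02 to 81.7), against 35.1% of 4641 others. At 70% GC and above it was in 54.1% (46.9 to 61.2), against 23.9%, and at 50 to 60% in 69.3%, against 41.0%. Below 50% it was in 11 of 21 windows (52.4%, 32.4 to 71.7), against 42.9%, which lies within that interval. The same 5 letters in 27 other orders, without CAATC and TCCAA, which share 4 letters in a row with CCAAT, had ratios of target genes to other genes from 0.586 to 0.966. The ratio was 1.88 for CCAAT, 1.81 for CAATC and 1.02 for TCCAA. At 60 to 70% GC the E-box was in 11.1% of target windows, against 10.97% of the others.

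For the other motifs the gaps were smaller. The GC box GGGCGG was in 81.5% of edit_myc_FLAG windows, 73.0% of myc_FLAG and 79.1% of endog_myc, against 56.9% of the others, but at 70% GC and above in 96.7% of target windows and 94.2% of others. TGACGT, the core of the cyclic AMP response element, was in 11.5%, 13.1% and 15.5%, against 9.48%. The NRF1 core GCATGCGC was in 6.92%, 5.74% and 6.08%, against 4.11%, and the ETS core CCGGAAG in 12.1%, 10.7% and 13.5%, against 13.8%. TATAAA was in 5.64%, 9.84% and 6.76%, against 10.1%. GGGCGG and the others can overlap one another in GC-rich windows.

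**Figure D4:**
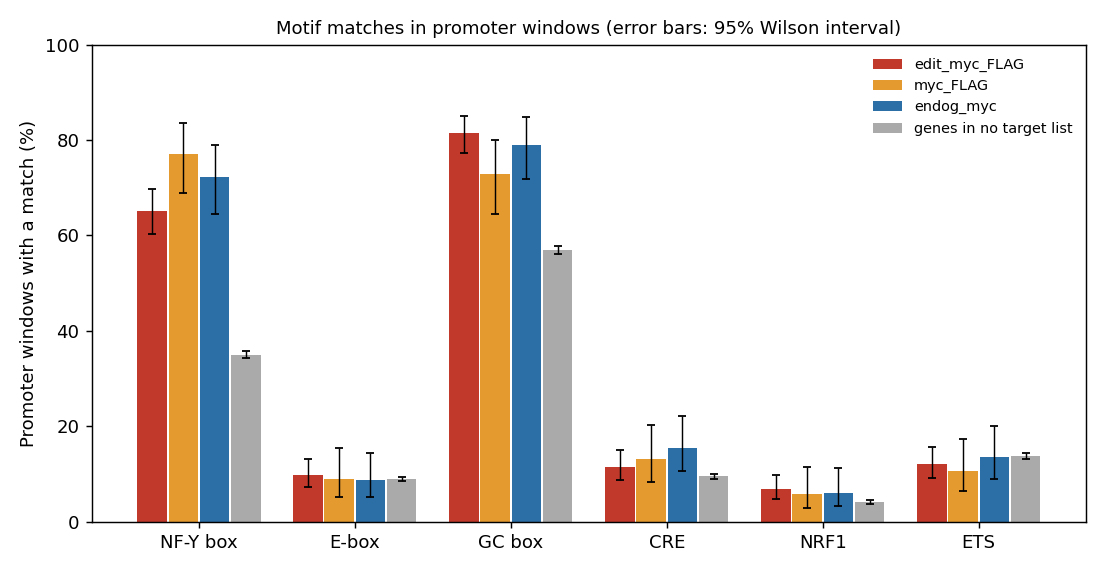
Share of promoter windows in % with at least 1 match on either strand, by target list and for genes with no single-end region in a target list; error bars are 95% Wilson intervals, and the NF-Y box is the CCAAT box. The NF-Y box is in 65.1%, 77.0% and 72.3% of the windows of the 3 target lists, against 35.0%, and the E-box is in 9.74%, 9.02% and 8.78%, against 8.90%.

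Where a summit lay inside a window that held CCAAT, a match was mostly near it. The median position of CCAAT matches from the start was -100 bp (edit_myc_FLAG), -104 bp (myc_FLAG) and -106 bp (endog_myc), against -93 bp in genes with no such region. From -70 to -50 bp there were 21.8 matches per 100 windows in edit_myc_FLAG, 27.9 in myc_FLAG and 29.1 in endog_myc, against 7.05 in the other genes. Of the summits inside the window, 150 of 205 edit_myc_FLAG summits had a CCAAT in it (73.2%), as did 55 of 62 myc_FLAG summits (88.7%) and 75 of 84 endog_myc summits (89.3%). The median distance from such a summit to the nearest match was 31.5, 24 and 34 bp in the same order. For GGGCGG it was 45, 71 and 46 bp and for CACGTG 64, 56 and 67 bp, the last over only 21, 5 and 7 windows. Windows with several matches give shorter distances by number alone. The window also bounds the distances, and no expected distance was computed.

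**Figure D5:**
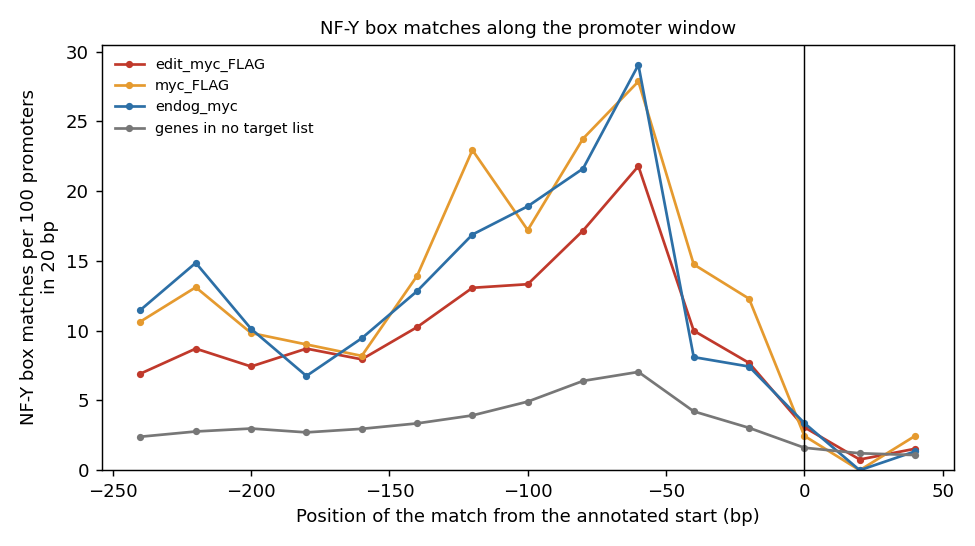
NF-Y box (CCAAT box) matches per 100 promoter windows in steps of 20 bp, by position from the annotated start in bp, for the 3 target lists and for genes with no single-end region in a target list. All 4 curves are highest from -70 to -50 bp, at 21.8, 27.9 and 29.1 in the target lists, against 7.05 in the other genes.

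Sharing was also set beside the CCAAT box. In edit_myc_FLAG 38.6% of genes with it overlapped another target list (32.8 to 44.7), against 18.4% of genes without it (12.8 to 25.7). In endog_myc the shares were 72.9% (63.8 to 80.4), against 53.7% (38.7 to 67.9), and in myc_FLAG 74.5% (64.8 to 82.2), against 78.6% (60.5 to 89.8). The median fold with and without the box was 5.55 and 5.22 in edit_myc_FLAG, 5.77 and 5.401 in myc_FLAG, and 5.81 and 5.12 in endog_myc. For the E-box the shared fraction in edit_myc_FLAG was 31.6% with it (12 of 38) and 31.5% without it. It was 90.9% (10 of 11, 62.3 to 98.4), against 73.9%, in myc_FLAG and 69.2% (9 of 13, 42.4 to 87.3), against 67.4%, in endog_myc. By number of lists, the E-box was in 5.77% of the windows of genes in all 3 target lists (3 of 52), 14.1% in exactly 2 (11 of 78, 8.06 to 23.5) and 8.91% in 1 (31 of 348), against 8.90% in none. These shares were not tested. Among the 16 named genes, 15 had a window, 12 of these held CCAAT, 9 held it more than once, and 1, ADI1, held an E-box.

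E-box promoters in at least 2 target lists numbered 14, of which 3 were in all 3 lists: DCTN4, ELK1 and ADI1. The 30 bases around the E-box are shown for the 6 nearest to a summit, on the strand of the gene, with CACGTG in capitals.
ARRDC4 (chr15:97960481-97960510, + strand): aaacggcctgtgCACGTGcacgccggagcc
DCTN4 (chr5:150759019-150759048, - strand): tggctctcgggtCACGTGatgcgccgggag
KLF6 (chr10:3785289-3785318, - strand): cgcggggcgagtCACGTGgggggaggggga
ATP2B1 (chr12:89709347-89709376, - strand): cgcggatcgcgtCACGTGaccgcgctcagc
MTHFD1 (chr14:64388326-64388355, + strand): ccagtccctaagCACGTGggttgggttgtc
ELK1 (chrX:47650579-47650608, - strand): cctcctcgggccCACGTGagctgtagggaa
In ARRDC4, an arrestin relative, the E-box lay 19 bp from the edit_myc_FLAG summit and 11 bp from the myc_FLAG summit, and this was the only one of the 14 within 50 bp of a summit. Its folds were 5.89 and 6.53. DCTN4, a dynactin subunit, had a fold of 8.07 (edit_myc_FLAG), 5.85 (myc_FLAG) and 5.56 (endog_myc), with the E-box 97, 51 and 221 bp from the summits. KLF6, a zinc finger factor, had 6.52 in edit_myc_FLAG and 6.42 in endog_myc, each with the E-box 67 bp away. ELK1, an ETS factor, had 6.74, 5.07 and 7.07 in the 3 lists and also 4 CCAAT matches. ATP2B1, a calcium pump, had 5.43 in edit_myc_FLAG and 4.65 in myc_FLAG, and in MTHFD1, a folate enzyme, the E-box lay 109 bp from the edit_myc_FLAG summit and 262 bp from the myc_FLAG summit. Of the 14 windows, 7 also held CCAAT. These genes were chosen after the sequences were seen.

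Ends of non-coding genes were also counted. A non-coding gene or pseudogene had an end within 1000 bp of the summit for 130 of 464 edit_myc_FLAG regions (28.0%), 49 of 142 myc_FLAG regions (34.5%) and 57 of 171 endog_myc regions (33.3%). The share over all gene ends was not computed. CAMTA1-DT, TIAM1-AS1, SP2-DT and GSK3B-DT are examples named after the coding gene. At the edge of the rule, from 900 to 1000 bp from an end, lay 7 edit_myc_FLAG, 3 myc_FLAG and 3 endog_myc regions, and from 1000 to 1100 bp lay 13, 0 and 3.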

How the data were processed

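CUT&RUN was measured in HEK293T cells, in 3 libraries per target group and 1 per IgG. The submitters' processing notes name hg38 and, with no roles, MACS3 3.0.0b1, Bowtie2 2.4.5, HOMER 4.10 and SAMtools 1.15. Options, the control library and the way replicates were merged were not stated. The deposited lists give each peak a fold, a −log10 q and a −log10 p, and a score that is a rescaled −log10 q; these are the authors' values, and the score and −log10 p were not used. Read depth is unknown, and it can change how long a list is.

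From the lists, the summit was set to the deposited start plus the offset plus 1 and classed against the spans of 18523 RefSeq protein-coding genes on the same assembly (GRCh38.p14). Strand and sequence came from RefSeq promoter windows, found for 14627 of these genes. Shares were compared with two-sided Fisher's exact, McNemar and binomial tests, adjusted by Benjamini-Hochberg within families of 9, 6 or 3 tests at a threshold of 0.05, with 95% Wilson intervals and a floor of 3 counts for a count of 0. The scripts were tested on simulated data. Python 3.11.15, pandas 2.3.3, SciPy 1.17.1, statsmodels 0.14.6 and matplotlib 3.10.9 were used.

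Named genes were the 16 highest by mean within-list percentile of fold among genes in all 3 target lists and no IgG list, the 6 highest-fold genes whose region overlapped no other list for each target list, the 3 highest of each pair of target lists, every gene of an IgG list, and up to 4 per gene list and target list. The members and gene lists were chosen with earlier results of these data known. Alternatives were a window of 500 or 2000 bp, a −log10 q of at least 5, at least 50% of the region covered, no LOC or read-through genes, the peak's middle, no IgG regions and equal list lengths.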

Additional observations from a re-analysis of the deposited data

How the results depend on the processing

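Of the recomputed values, 202 kept their direction and their side of the threshold or moved by less than their interval, 17 moved further, 17 changed sign, 6 fell below the threshold and 2 newly passed it. The 202 include every value for nearness to the start (18), IgG overlap (18) and the endog_myc comparison of edit_myc_FLAG with myc_FLAG (7). With 500 bp, mouse IgG had 1 region, and with 2000 bp 4. With a −log10 q of at least 5, 141 regions were left in edit_myc_FLAG, 61 in myc_FLAG, 77 in endog_myc and 0 in rabbit IgG. The shares overlapping were then 31.2% for edit_myc_FLAG in endog_myc and 54.1% for myc_FLAG in edit_myc_FLAG, and the CCAAT box was in 72.8% of edit_myc_FLAG and 80.9% of endog_myc windows. With 50% of the region covered, shares were 14.9% for edit_myc_FLAG in myc_FLAG, 51.4% for myc_FLAG in edit_myc_FLAG and 52.6% for endog_myc in edit_myc_FLAG. With 942 regions per target list, they were 26.1% for edit_myc_FLAG in myc_FLAG, 30.6% for edit_myc_FLAG in endog_myc, 50% for myc_FLAG in edit_myc_FLAG and 48.8% for endog_myc in edit_myc_FLAG.

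Differences from ends of 2 or more genes changed sign, always with an adjusted p of 1 in Fisher's exact test. For myc_FLAG in edit_myc_FLAG they were -0.231 points (500 bp), -1.82 (2000 bp), -7.81 (stricter q), -5.62 (no LOC or read-through genes) and -2.44 (50% covered). For endog_myc in myc_FLAG they were 0.850 (2000 bp), 1.80 (stricter q) and 0.494 (no LOC or read-through genes). The others were -1.65 (500 bp) and -0.267 (equal lengths) for endog_myc in edit_myc_FLAG, -1.56 (stricter q) for myc_FLAG in endog_myc, and 0.634 (50% covered) for edit_myc_FLAG in endog_myc. All alternatives for the comparison with regions away from gene ends, for the shares at single gene ends and for the CCAAT box were added after seeing the data. Against regions away from gene ends, myc_FLAG and endog_myc in edit_myc_FLAG differed by -12.02 and -8.23 points with the stricter q and by -3.54 and -1.17 points with 50% covered. Without IgG regions, the differences were 20.2 and 15.6 points for these pairs, -4.66 for edit_myc_FLAG in endog_myc, 0.207 for myc_FLAG in endog_myc and -6.36 for endog_myc in myc_FLAG. With equal lengths, myc_FLAG in endog_myc differed by -9.83 points (exact test, adjusted p = 0.0503). With 212 regions in each of the 5 lists, shares at single gene ends differed by 3.77 points (myc_FLAG minus rabbit IgG), 3.77 (edit_myc_FLAG minus myc_FLAG) and 0 (edit_myc_FLAG minus endog_myc). The causes were not tested.

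No paired analysis was possible because each target list merges its 3 replicates. No replicate was left out for the same reason. Each IgG has 1 library. Depth is unknown, and a region missing from a list is not shown to be absent.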

Other observations

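Genes with a single-end region in any target list were unevenly spread over the chromosomes. Chromosome 21 had 18 of 239 genes (7.53 per 100), chromosome 1 had 84 of 2062 (4.07 per 100) and chromosome 16 had 32 of 854 (3.75 per 100). The lowest values were 1.78 per 100 on chromosome 13 (6 of 338), 1.82 on chromosome 4 (14 of 770) and 1.92 on chromosome 11 (25 of 1301). Chromosome X had 21 of 848 (2.48 per 100). These values were not tested.

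The 10 edit_myc_FLAG regions nearer to the far end of their gene lay at FOXO6, BOLA1, SDR42E2, MXRA7, ASAP2, KRTAP10-10, POTEH, TAF11L7, VCX2 and VCX3B. Several of these belong to families with near-identical copies (POTEH, TAF11L7, VCX2 and VCX3B), so their placement is uncertain. BOLA1, KRTAP10-10 and TAF11L7 have short spans, and their summits lay within 1000 bp of both ends, so the nearer end says little there. Genes at ends of 2 or more genes had the E-box in 14.2% of windows (10.7 to 18.6) and the CCAAT box in 65.2%. The difference in E-box share from single-end genes (9.41%) was not tested.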
